A study of Mus musculus with 8 samples.

Results

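Hepatocyte identity is held by a small set of liver-enriched transcription factors, and 8 of them were followed over the 4 groups of the study: Hnf4a, Foxa1, Foxa2, Foxa3, Cebpa, Cebpb, Onecut1 and Prox1. Probe sets whose platform gene symbol was one of these were taken, with the brightest kept for each gene, which gave 8 genes of the 19937 tested. Each of the 8 had exactly 1 probe set, so no choice among probe sets arose. The RNA came from primary hepatocytes of male BALB/c mice, HO1-/- or HO1+/+ littermates, whose age the labels do not give. Cells of each genotype received a lentivirus with an shRNA against HO2 or a scrambled shRNA, were placed in puromycin after 24 h, and after 3 days received a dexamethasone pulse (1 µM, 30 min), with harvest after a further 28 h. The groups were combined (HO1-/-, HO2 shRNA), HO2 knockdown (HO1+/+, HO2 shRNA), HO1 knockout (HO1-/-, scrambled shRNA) and control (HO1+/+, scrambled shRNA), with 2 arrays each and 8 arrays in all. Every group, control included, thus carried a lentivirus and had been through puromycin and dexamethasone, and HO2 was targeted with 1 hairpin sequence. The labels call the replicates biological without saying whether animals or cultures were separate. The p-values therefore speak only of the spread among these arrays. Genotype cannot be told apart from the preparation of the hepatocytes.

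These factors act as a cross-regulating network in the liver. HNF4A is a nuclear receptor that activates genes of lipid transport, gluconeogenesis and blood clotting. The forkhead proteins FOXA1, FOXA2 and FOXA3 open compacted chromatin so that other factors can bind. C/EBPα and C/EBPβ are leucine zipper proteins of metabolic and acute-phase genes, and C/EBPα restrains hepatocyte division. HNF6, encoded by Onecut1, carries a cut domain and a homeodomain, and PROX1 is a homeodomain protein needed for hepatoblast migration that also acts as a corepressor of HNF4A.

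Promoter windows are shown for the members in which a searched motif was found, since members of such a network are often described as regulating each other. The windows are RefSeq sequences of GRCm38.p6, 300 bases each, 250 before and 50 after a transcript start, and all 8 members matched, with 12 windows among them. The letters searched on both strands were CAAAGTCCA for an HNF4 site, TNTTTAC for a forkhead site, TTGCNNAA for a C/EBP site, ATTGAT for the HNF6 core and CACGTG for an E-box, the site of the clock factors CLOCK and BMAL1. Of 32851 promoter windows, 0.475% held the HNF4 letters, 12.4% the forkhead letters, 10.8% the C/EBP letters, 7.54% the HNF6 core and 7.15% the E-box. Capitals mark the matches, which are descriptions of letters and not shown to be bound.
Hnf4a, chr2:163506607-163506906, plus strand: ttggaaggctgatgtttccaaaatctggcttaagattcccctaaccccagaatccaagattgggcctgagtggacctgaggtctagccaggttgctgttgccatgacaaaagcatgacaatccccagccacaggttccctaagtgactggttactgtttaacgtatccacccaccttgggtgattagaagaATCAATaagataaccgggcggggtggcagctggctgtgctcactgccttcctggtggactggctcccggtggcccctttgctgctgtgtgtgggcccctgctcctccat
Foxa1, chr12:57546062-57546361, minus strand: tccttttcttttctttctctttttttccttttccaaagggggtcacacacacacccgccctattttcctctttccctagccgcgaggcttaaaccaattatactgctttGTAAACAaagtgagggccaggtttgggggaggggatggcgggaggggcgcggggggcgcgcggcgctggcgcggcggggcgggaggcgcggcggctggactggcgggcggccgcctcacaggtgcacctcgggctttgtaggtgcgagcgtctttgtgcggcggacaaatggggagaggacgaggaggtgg
Foxa2, chr2:148046920-148047219, minus strand: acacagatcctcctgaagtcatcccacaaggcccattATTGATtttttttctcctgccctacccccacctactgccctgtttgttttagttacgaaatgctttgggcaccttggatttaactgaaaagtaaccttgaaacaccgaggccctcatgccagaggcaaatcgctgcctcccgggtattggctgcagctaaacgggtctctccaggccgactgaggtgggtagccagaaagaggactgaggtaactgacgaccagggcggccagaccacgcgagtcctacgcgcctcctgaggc
Onecut1, chr9:74861671-74861970, plus strand: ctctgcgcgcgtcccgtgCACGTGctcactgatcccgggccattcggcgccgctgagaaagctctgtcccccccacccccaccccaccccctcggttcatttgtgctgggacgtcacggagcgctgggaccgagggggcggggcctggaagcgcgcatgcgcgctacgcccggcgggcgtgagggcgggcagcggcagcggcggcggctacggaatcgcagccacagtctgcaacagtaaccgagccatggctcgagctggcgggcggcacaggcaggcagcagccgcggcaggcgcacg
Hnf4a had 2 windows and Foxa2 had 3, and only the window shown for each held any of the searched letters. In these the HNF6 core began 59 bases before the start for Hnf4a and 213 bases before it for Foxa2. The forkhead letters began 141 bases before the Foxa1 start, and the E-box began 232 bases before the Onecut1 start. The other 8 windows of the members held none of the searched letters.

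Values are log2 signal, on which array medians lay between 7.61 and 7.70, and a log2 fold change is a difference between group means on that scale. All tests are from limma fitted over the 19937 genes, two-sided, with Benjamini-Hochberg adjustment over all of them, and a gene passed at an adjusted p under 0.05. The knockdown target Hmox2 read 9.26 and 9.32 in combined and 8.32 and 8.38 in HO2 knockdown, against 11.59 and 11.60 in the arrays labelled HO1 knockout and 11.41 and 11.57 in control. Hmox1 was not lower under the HO1-/- label, with 12.40 and 12.47 in combined against 11.54 and 11.57 in HO2 knockdown, and 11.98 and 11.97 in the arrays labelled HO1 knockout against 11.46 and 11.40 in control. The probe set reads along the gene and the deleted part is not given in the sources used here, so the HO1 directions that follow are directions by label. Hepatocyte markers were bright, with a mean log2 signal over 18 genes of 11.92 to 11.93 in combined, 11.80 to 11.83 in HO2 knockdown, 10.68 to 10.70 in the arrays labelled HO1 knockout and 10.39 to 10.40 in control. The mean over 19 macrophage markers was 9.56 to 9.61 in combined and 9.57 to 9.59 in the arrays labelled HO1 knockout, against 7.38 to 7.48 in HO2 knockdown and 7.51 to 7.53 in control. In such bulk RNA, fewer cells of a type and less RNA per cell cannot be told apart.

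With HO2 shRNA in HO1+/+ cells all 8 factors passed the test: Hnf4a, Foxa1, Foxa2, Foxa3, Cebpa, Onecut1 and Prox1 rose and Cebpb fell. Among all genes tested 16.5% were called higher and 16.7% lower in this comparison, against 7 and 1 of the 8 factors. The median log2 fold change of the 8 was 0.66, beside -0.066 for all genes. In HO1-/- cells 5 of the 8 rose with the same hairpin, namely Hnf4a, Foxa3, Cebpa, Onecut1 and Prox1. Cebpb fell, and Foxa1 and Foxa2 did not pass. Among all genes 10.2% were called higher and 12.8% lower there, and the factors' median was 0.37 beside 0.014. Leaving out any single array changed none of the 8 calls in HO1+/+ cells, and the changes in HO1-/- cells are given with Foxa2 and Cebpa below.

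**Figure D1:**
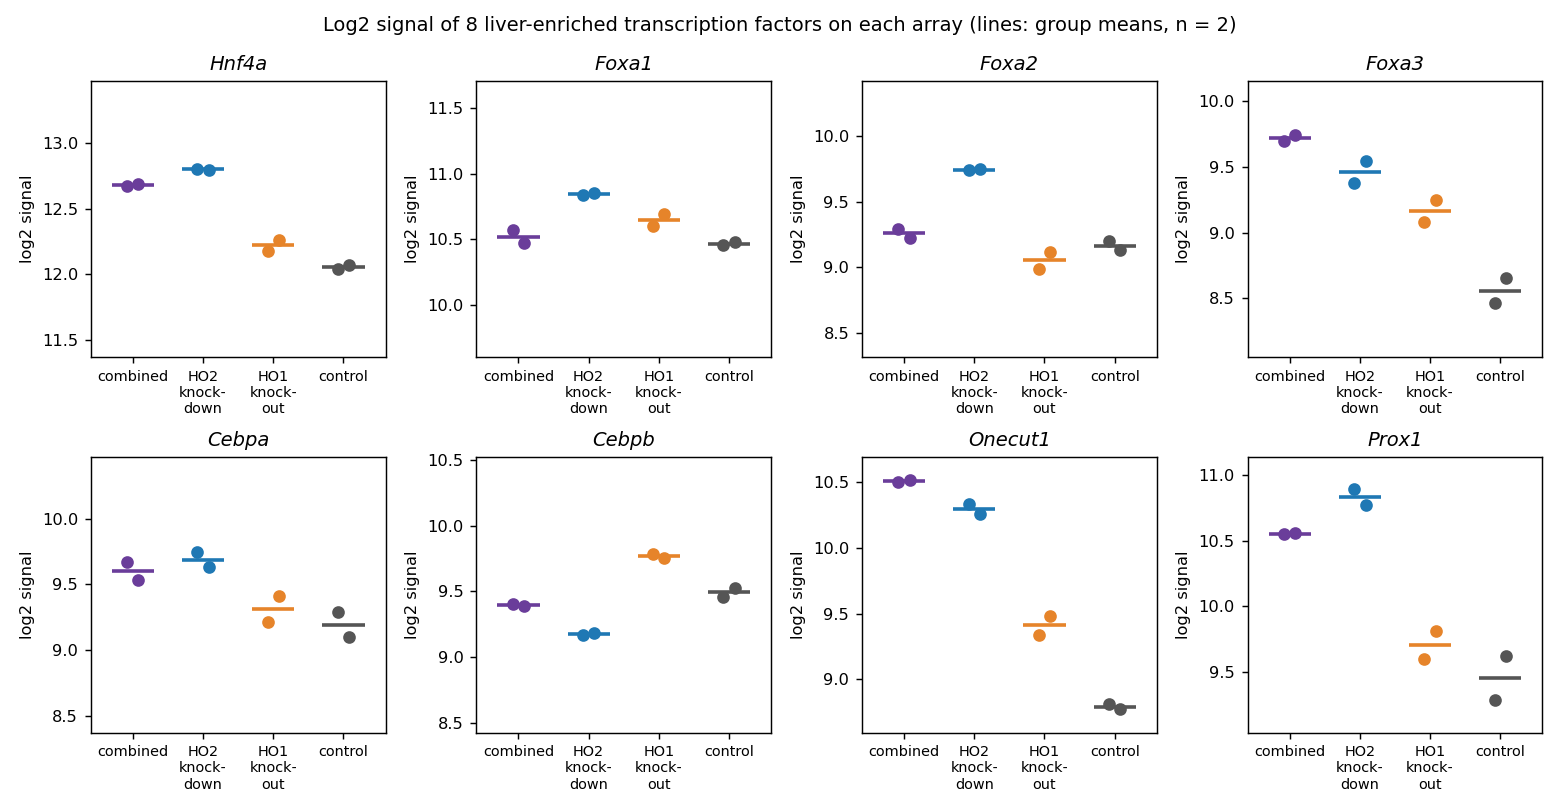
Log2 signal (y axis, 1 panel a gene, each spanning the same log2 range) on each array of the 4 groups (x axis), with points for the 2 arrays of a group and a line for their mean. Onecut1 read 10.50 and 10.52 in combined and 10.34 and 10.26 in HO2 knockdown, against 8.81 and 8.77 in control, while Cebpb was lowest in HO2 knockdown at 9.16 and 9.18.

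Hnf4a read 12.67 and 12.69 in combined, 12.80 and 12.80 in HO2 knockdown, 12.18 and 12.26 in the arrays labelled HO1 knockout and 12.04 and 12.07 in control. No 2 groups overlapped, and both groups with HO2 shRNA lay above both with scrambled shRNA. With 2 arrays a group such separation says little, here and for the other factors. The Foxa2 arrays of combined and control did not overlap either, without a called difference (limma adjusted p = 0.393). The share of all genes that separate was not counted. The rise of Hnf4a with HO2 shRNA was 0.75 in HO1+/+ cells (SE 0.042 in limma, adjusted p = 1.53e-09, 1.68-fold) and 0.46 in HO1-/- cells (SE 0.042, adjusted p = 5.42e-07, 1.37-fold). The order of group means was HO2 knockdown, combined, labelled HO1 knockout, control, and each neighbour differed in the fit over all arrays. Its upper step, combined against HO2 knockdown, was lost without any 1 of the 4 arrays compared (adjusted p up to 0.153), and its lower step, the arrays labelled HO1 knockout against control, without control replicate 1 (0.0762) or replicate 2 of the arrays labelled HO1 knockout (0.14).

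Onecut1 had the widest range of the 8 over the arrays, 1.75 on the log2 scale. It read 10.50 and 10.52 in combined, 10.34 and 10.26 in HO2 knockdown, 9.34 and 9.48 in the arrays labelled HO1 knockout and 8.81 and 8.77 in control. The 4 groups did not overlap, and combined was the highest of them. HO2 shRNA raised it by 1.51 in HO1+/+ cells (SE 0.068 in limma, adjusted p = 1.15e-10, 2.84-fold) and by 1.10 in HO1-/- cells (SE 0.068, adjusted p = 6.55e-09, 2.14-fold). Combined exceeded control by 1.72 (SE 0.068, adjusted p = 1.01e-11, 3.29-fold).

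Prox1 followed with a range of 1.60. It read 10.55 and 10.56 in combined, 10.89 and 10.77 in HO2 knockdown, 9.60 and 9.81 in the arrays labelled HO1 knockout and 9.29 and 9.62 in control. The 2 groups with scrambled shRNA overlapped, while all 4 arrays with HO2 shRNA lay above all 4 others. HO2 shRNA raised Prox1 by 1.38 in HO1+/+ cells (SE 0.094 in limma, adjusted p = 1.49e-08, 2.60-fold) and by 0.85 in HO1-/- cells (SE 0.094, adjusted p = 4.67e-06, 1.80-fold).

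The 3 forkhead genes differed among themselves. Foxa3, which encodes the forkhead protein most restricted to endoderm-derived tissues, read 9.69 and 9.74 in combined, 9.38 and 9.55 in HO2 knockdown, 9.08 and 9.25 in the arrays labelled HO1 knockout and 8.46 and 8.65 in control. No 2 groups overlapped, and the order was that of Onecut1. The rise with HO2 shRNA was 0.90 in HO1+/+ cells (SE 0.087 in limma, adjusted p = 7.87e-07, 1.87-fold) and 0.56 in HO1-/- cells (SE 0.087, adjusted p = 0.000169, 1.47-fold).

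Foxa1 and Foxa2, which act together at the onset of liver development, were highest in HO2 knockdown. Foxa1 read 10.57 and 10.47 in combined, 10.84 and 10.85 in HO2 knockdown, 10.60 and 10.69 in the arrays labelled HO1 knockout and 10.46 and 10.48 in control. Foxa2 read 9.30 and 9.22 in combined, 9.74 and 9.75 in HO2 knockdown, 8.99 and 9.12 in the arrays labelled HO1 knockout and 9.20 and 9.13 in control. For each gene the 2 arrays of HO2 knockdown stood apart above the other 6. In HO1+/+ cells HO2 shRNA raised Foxa1 by 0.38 (SE 0.057 in limma, adjusted p = 7.99e-05, 1.30-fold) and Foxa2 by 0.58 (SE 0.072, adjusted p = 1.13e-05, 1.50-fold). In HO1-/- cells the log2 fold change was -0.13 for Foxa1 (95% interval -0.25 to -0.0052, adjusted p = 0.138) and 0.21 for Foxa2 (95% interval 0.052 to 0.36, adjusted p = 0.0522). Foxa2 passed there without control replicate 1 (adjusted p = 0.0342), control replicate 2 (adjusted p = 0.0338) or replicate 2 of the arrays labelled HO1 knockout (0.27, adjusted p = 0.0458), so it lay at the threshold.

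The 2 C/EBP genes moved in opposite directions with HO2 shRNA. Cebpa read 9.67 and 9.53 in combined, 9.75 and 9.63 in HO2 knockdown, 9.22 and 9.41 in the arrays labelled HO1 knockout and 9.29 and 9.10 in control. The 4 arrays with HO2 shRNA lay above the 4 with scrambled shRNA, and within each hairpin the genotypes overlapped. It rose by 0.50 in HO1+/+ cells (SE 0.087 in limma, adjusted p = 0.000331, 1.41-fold) and by 0.29 in HO1-/- cells (SE 0.087, adjusted p = 0.0247, 1.22-fold). The rise in HO1-/- cells did not pass without replicate 1 of the arrays labelled HO1 knockout (0.19, adjusted p = 0.278) or without combined replicate 1 (0.22, adjusted p = 0.232), nor without the mean-variance trend of the fit (0.0683).

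Cebpb, an early gene of the acute-phase response that macrophages also express, read 9.40 and 9.38 in combined, 9.16 and 9.18 in HO2 knockdown, 9.78 and 9.75 in the arrays labelled HO1 knockout and 9.46 and 9.53 in control. No 2 groups overlapped, and the arrays labelled HO1 knockout were the highest. HO2 shRNA lowered it by a log2 fold change of -0.32 in HO1+/+ cells (SE 0.066 in limma, adjusted p = 0.00129) and of -0.38 in HO1-/- cells (SE 0.066, adjusted p = 0.00044). Its level in combined and in control did not differ beyond the test, with a difference of -0.10 (95% interval -0.24 to 0.040, adjusted p = 0.315). Of the macrophage markers 4 of 19 rose and 5 fell in combined against the arrays labelled HO1 knockout, and 0 rose and 2 fell in HO2 knockdown against control. Among all genes 10.2% were called higher and 12.8% lower in the former comparison, and 16.5% and 16.7% in the latter. The part of macrophage transcripts in the fall of Cebpb was not tested.

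**Figure D2:**
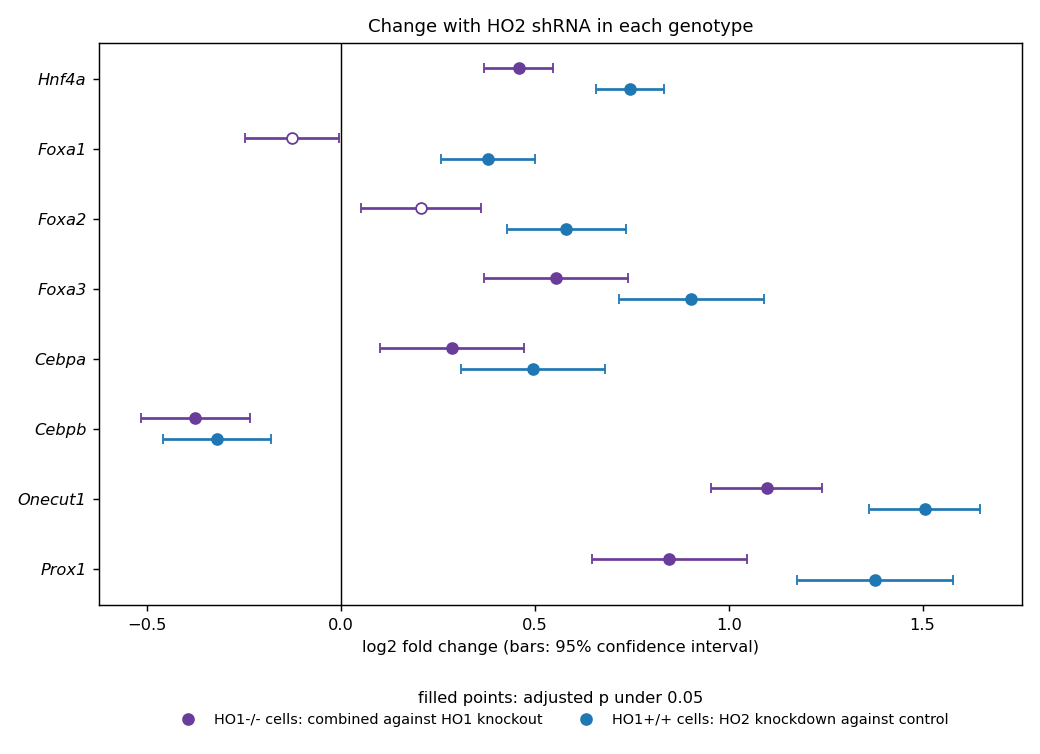
Log2 fold change with HO2 shRNA (x axis) for each factor (y axis) in HO1-/- cells (combined against the arrays labelled HO1 knockout) and in HO1+/+ cells (HO2 knockdown against control), with bars for the 95% confidence interval and filled points for an adjusted p under 0.05. The change was smaller in HO1-/- cells for Onecut1 (1.10 against 1.51) and Prox1 (0.85 against 1.38), and Foxa1 had -0.13 against 0.38.

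The interaction asks whether the change with HO2 shRNA differed between the genotypes, as the change in HO1-/- cells minus that in HO1+/+ cells. It was below 0 for all 8 factors, although Cebpb was at 0.0054 with the values quantile normalized once more. It passed for 5, namely Foxa1, Hnf4a, Onecut1, Prox1 and Foxa2. Among all genes 4.67% had a called interaction above 0 and 7.57% below 0, and the factors' median was -0.36 beside 0.048. The difference was -0.51 for Foxa1 (SE 0.081 in limma, adjusted p = 0.000735) and -0.29 for Hnf4a (SE 0.059, adjusted p = 0.00486), and both passed without any single array. Without the mean-variance trend of the fit Hnf4a missed the threshold (0.0819), as did Prox1 (0.0762) and Foxa2 (0.0547). The interaction was -0.41 for Onecut1 (SE 0.096, adjusted p = 0.0115), -0.53 for Prox1 (SE 0.13, adjusted p = 0.0169) and -0.38 for Foxa2 (SE 0.10, adjusted p = 0.0262, and 0.0691 with the values quantile normalized once more). These 3 rested on particular arrays. Without replicate 2 of the arrays labelled HO1 knockout the adjusted p was 0.0564 for Onecut1, 0.0775 for Prox1 and 0.103 for Foxa2. Without HO2 knockdown replicate 1 it was 0.0666, 0.0894 and 0.0859 for those genes in that order, and without combined replicate 1 it was 0.0553, 0.0644 and 0.0573. Prox1 also missed the threshold without combined replicate 2 (0.0588), as did Foxa2 (0.117), and Foxa2 without HO2 knockdown replicate 2 (0.0769). Foxa3 was at -0.35 (adjusted p = 0.0791) and passed without control replicate 2 (-0.44, adjusted p = 0.0173), while Cebpa was at -0.21 (adjusted p = 0.28) and Cebpb at -0.055 (adjusted p = 0.728). Hmox2 itself fell by less in HO1-/- cells, with -2.30 against -3.14 in HO1+/+ cells (interaction 0.84, adjusted p = 3.86e-05), and its part in the smaller changes of the factors was not tested.

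In the arrays labelled HO1 knockout against control 4 factors were higher, Foxa3, Onecut1, Cebpb and Hnf4a, and 0 were lower. Among all genes 5.62% were called higher and 7.2% lower, and the factors' median was 0.21 beside -0.041. Onecut1 was higher by 0.62 (SE 0.068 in limma, adjusted p = 6.76e-06, 1.54-fold) and Foxa3 by 0.60 (SE 0.087, adjusted p = 0.00014, 1.52-fold). Cebpb was higher by 0.28 (adjusted p = 0.00978) and Hnf4a by 0.16 (adjusted p = 0.0146). Hnf4a missed the threshold without control replicate 1 (0.15, adjusted p = 0.0762) and without replicate 2 of the arrays labelled HO1 knockout (0.12, adjusted p = 0.14), and Cebpb without replicate 1 of those arrays (0.26, adjusted p = 0.0812). Hnf4a also missed it with arrays centred on their medians (0.0596), on the 4 compared arrays alone (0.0513) and without the mean-variance trend of the fit (0.162). Prox1 was at 0.25 (adjusted p = 0.104) and passed without control replicate 2 (0.42, adjusted p = 0.00376). Foxa1 was at 0.18 (95% interval 0.058 to 0.30, adjusted p = 0.051, and 0.0203 with the values quantile normalized once more), Cebpa at 0.12 (-0.066 to 0.31, adjusted p = 0.482) and Foxa2 at -0.11 (-0.26 to 0.044, adjusted p = 0.42). In the same comparison 14 of 19 macrophage markers rose and 1 fell, with a median of 2.18, among them the lysozyme gene Lyz2 at 4.54 and the complement gene C1qb at 3.79. Clec4f, which defines resident Kupffer cells, was at -0.042 (adjusted p = 0.897). Other lists moved as well: 11 of 18 hepatocyte markers rose and 2 fell (median 0.29), 0 of 15 stellate and fibroblast markers rose and 9 fell (median -0.34), and 5 of 14 sinusoidal endothelial markers rose and 0 fell (median 0.18). The part of these transcripts in the values of Cebpb, Cebpa and the other factors was not tested.

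**Figure D3:**
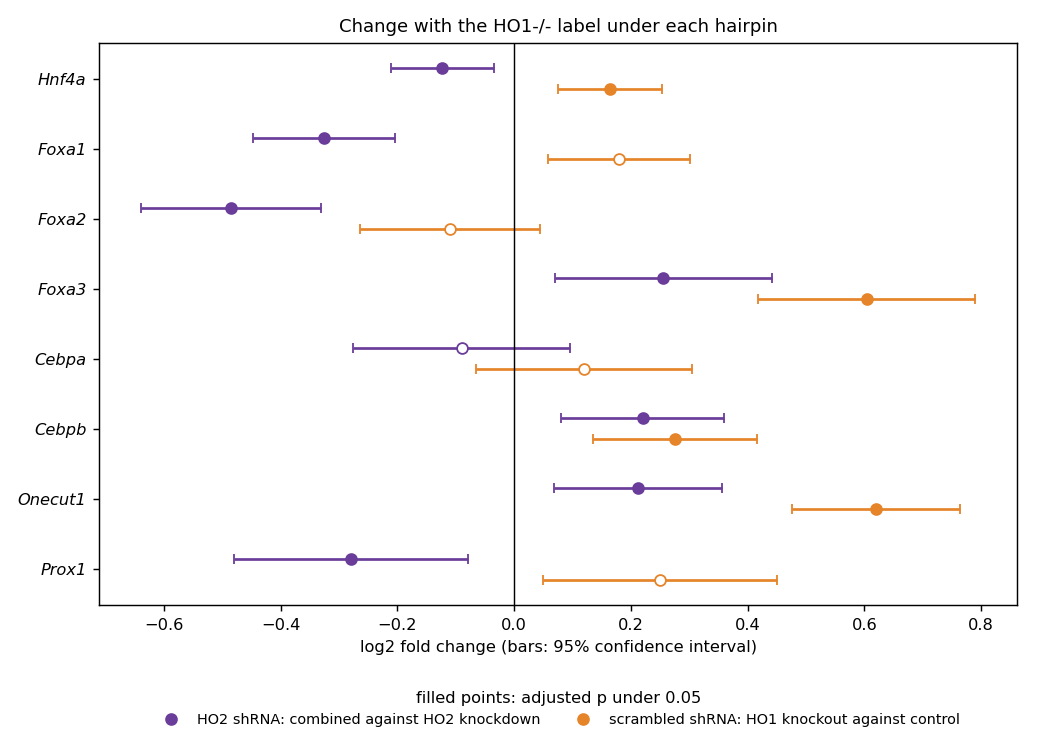
Log2 fold change with the HO1-/- label (x axis) for each factor (y axis) under HO2 shRNA (combined against HO2 knockdown) and under scrambled shRNA (labelled HO1 knockout against control), with bars for the 95% confidence interval and filled points for an adjusted p under 0.05. Foxa1 had -0.33 under HO2 shRNA and 0.18 under scrambled shRNA, while Foxa3, Cebpb and Onecut1 were above 0 under both hairpins.

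Combined against HO2 knockdown gave the HO1 comparison under HO2 shRNA. Foxa3, Cebpb and Onecut1 were higher in combined, Hnf4a, Foxa1, Foxa2 and Prox1 lower, and Cebpa did not pass. Among all genes 13% were called higher and 21% lower, and the factors' median was -0.11 beside 0.022. Foxa2 was lower by -0.49 on the log2 scale (SE 0.072 in limma, adjusted p = 0.000107) and Foxa1 by -0.33 (SE 0.057, adjusted p = 0.000433), and both passed without any single array. The other 5 calls were weaker. Prox1 was at -0.28 (adjusted p = 0.0311), Foxa3 at 0.26 (0.0338), Cebpb at 0.22 (0.0173), Onecut1 at 0.21 (0.0243) and Hnf4a at -0.12 (0.0326). Hnf4a, Cebpb and Onecut1 missed the threshold without any 1 of the 4 arrays compared, with adjusted p up to 0.153, 0.098 and 0.155, and Foxa3 and Prox1 without HO2 knockdown replicate 1 (0.296 and 0.225), combined replicate 1 (0.098 and 0.127) or combined replicate 2 (0.175 and 0.118). With each array centred on its median Foxa3, Cebpb and Onecut1 no longer passed, leaving 0 higher and 4 lower, and with the values quantile normalized once more 3 were higher and 2 lower. The calls over all genes shifted as well. Of these, 38.2% were higher with the values as deposited, 27.1% after centring and 47.7% after the second quantile normalization. Macrophage markers were higher here too, with 15 of 19 up and 0 down (median 2.49), as were 9 of 14 sinusoidal endothelial markers with 1 down (median 0.36) and 14 of 19 cell cycle genes with 0 down (median 0.37). Of the stellate and fibroblast markers 2 of 15 were up and 7 down (median 0.023), and of the hepatocyte markers 6 of 18 were up and 3 down (median 0.084). Their part in these values was not tested.

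In combined against control 5 factors rose, Onecut1, Foxa3, Prox1, Hnf4a and Cebpa, and 0 fell. Among all genes 11.6% were called higher and 18.3% lower, and the factors' median was 0.51 beside -0.019. Foxa3 was higher by 1.16 (SE 0.087 in limma, adjusted p = 3.38e-08, 2.23-fold), Prox1 by 1.10 (SE 0.094, adjusted p = 1.52e-07, 2.14-fold), Hnf4a by 0.62 (SE 0.042, adjusted p = 8.27e-09, 1.54-fold) and Cebpa by 0.41 (SE 0.087, adjusted p = 0.00178, 1.33-fold). Foxa1 was at 0.053 (95% interval -0.069 to 0.17) and Foxa2 at 0.096 (95% interval -0.058 to 0.25). The calls stood without any single array. In the same comparison 15 of 18 hepatocyte markers rose and 1 fell (median 1.15), 14 of 19 macrophage markers rose and 0 fell (median 2.46), 10 of 14 sinusoidal endothelial markers rose and 0 fell (median 0.52), and all 19 cell cycle genes fell (median -0.76). Their part in the values of the factors was not tested. The comparisons with control share its 2 arrays, so their values for a factor are set side by side and not counted as separate support.

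HO2 knockdown was also set against the arrays labelled HO1 knockout, a comparison chosen after the values were seen and used only to order the groups. All 8 factors differed, 7 higher and Cebpb lower, where 21% of all genes were called higher and 15.6% lower. Unlike the other comparisons, it was not refitted without single arrays or under other alternatives, so how firm these calls are was not tested. Onecut1 and Foxa3 followed the order combined, HO2 knockdown, labelled HO1 knockout, control, with every neighbour different in the fit over all arrays. Their top step, combined above HO2 knockdown, was lost without single arrays as given above, and with arrays centred on their medians the adjusted p was 0.114 for Onecut1 and 0.127 for Foxa3. Cebpa and Prox1 kept the order of Hnf4a, but Prox1 did not differ beyond the test between the scrambled groups, and Cebpa differed neither there nor between the groups with HO2 shRNA. For Foxa1 the order was HO2 knockdown, labelled HO1 knockout, combined, control, and of these neighbours only HO2 knockdown and the arrays labelled HO1 knockout differed. Foxa2 had HO2 knockdown on top and did not differ between combined and control or between control and the arrays labelled HO1 knockout. Cebpb ran labelled HO1 knockout, control, combined, HO2 knockdown, with control and combined not different.

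Genes that these factors are known to activate were followed as lists. Of 24 HNF4A targets, 18 rose and 0 fell with HO2 shRNA in HO1-/- cells (median 0.83), and 20 rose and 1 fell in HO1+/+ cells (median 1.17). G6pc, the last enzyme of gluconeogenesis, rose by 3.50 in HO1-/- cells (SE 0.12 in limma, adjusted p = 6.58e-12) and by 3.04 in HO1+/+ cells (SE 0.12, adjusted p = 2.69e-11). The HDL apolipoprotein genes followed, Apoa2 with 2.83 in HO1-/- cells and 2.80 in HO1+/+ cells, and Apoa1 with 2.30 and 2.32. F12, which encodes clotting factor XII, rose by 1.40 in HO1-/- cells and 1.86 in HO1+/+ cells. Apob, the structural protein of VLDL, was the exception that fell, at -0.15 in HO1+/+ cells (adjusted p = 0.0169), and was at -0.035 in HO1-/- cells (adjusted p = 0.691). Under scrambled shRNA 5 of the 24 were higher and 5 lower in the arrays labelled HO1 knockout than in control (median -0.0095), with F7, which encodes clotting factor VII, at 0.76 and Apoa4 at -1.04.

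Of 13 FOXA targets 11 rose and 0 fell with HO2 shRNA in HO1-/- cells (median 1.43), and 11 rose and 1 fell in HO1+/+ cells (median 0.84). Tat, the tyrosine aminotransferase whose gene needs FOXA proteins for its glucocorticoid response, rose by 1.84 in HO1-/- cells (SE 0.047 in limma, adjusted p = 3.58e-13) and by 2.37 in HO1+/+ cells (SE 0.047, adjusted p = 2.59e-14). Igfbp1, an insulin-repressed secreted binding protein, rose by 1.43 in HO1-/- cells and 1.62 in HO1+/+ cells, and the thyroxine carrier gene Ttr by 0.57 and 0.84. Afp, the fetal albumin relative, also rose, by 1.52 in HO1-/- cells and 1.14 in HO1+/+ cells. In the arrays labelled HO1 knockout against control 3 of the 13 were higher and 4 lower (median -0.0052). Dexamethasone was given to all cells at the same dose, and no array came from cells without it. Whether the response to it differed between the groups was not tested.

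Of 7 HNF6 targets 6 rose and 0 fell with HO2 shRNA in each genotype, with a median of 1.70 in HO1-/- cells and 0.85 in HO1+/+ cells. Slc2a2, the glucose transporter GLUT2, rose by 2.43 in HO1-/- cells (SE 0.12 in limma, adjusted p = 5.42e-10) and by 1.99 in HO1+/+ cells (SE 0.12, adjusted p = 3.79e-09). Pck1, the first committed step of gluconeogenesis, rose by 1.87 in HO1-/- cells and 2.28 in HO1+/+ cells, and the cytochrome gene Cyp2c29 by 1.12 and 0.85. Oit3 was the gene that did not pass, at 0.27 in HO1-/- cells and -0.092 in HO1+/+ cells. G6pc, Ttr, Tat, Apob, Pck1 and Slc2a2 are among the genes that stand in more than 1 of the target lists, so the lists are not independent of each other. Nr1i2 and Creb3l3 stand both among the HNF4A targets and among the other regulators counted below.

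Of 16 C/EBP targets 10 rose and 5 fell with HO2 shRNA in HO1-/- cells (median 0.72), and 13 rose and 2 fell in HO1+/+ cells (median 1.00). Cps1, the first enzyme of the urea cycle, rose by 2.31 in HO1-/- cells (SE 0.062 in limma, adjusted p = 5.38e-13) and by 2.99 in HO1+/+ cells (SE 0.062, adjusted p = 2.59e-14). Orm2 and Orm1, which encode acid glycoproteins of the plasma, fell with HO2 shRNA in both genotypes. Orm2 was at -2.76 in HO1-/- cells and -0.999 in HO1+/+ cells, and Orm1 at -1.96 and -0.24. Haptoglobin, encoded by Hp, fell in HO1-/- cells (-0.75, adjusted p = 2.46e-09) and was at 0.021 in HO1+/+ cells (adjusted p = 0.732). In the arrays labelled HO1 knockout against control 8 of the 16 were higher and 2 lower (median 0.23), with Orm2 at 1.86, Orm1 at 1.59, Hp at 0.75 and Arg1 at 3.77. Arg1 encodes arginase 1, an enzyme of hepatocytes and of macrophages, and fell with HO2 shRNA in HO1-/- cells (-1.48) but rose in HO1+/+ cells (1.58). Cebpb was lower with HO2 shRNA in both genotypes, where most C/EBP targets rose, and higher in the arrays labelled HO1 knockout than in control. Its part in the values of these genes was not tested.

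**Figure D4:**
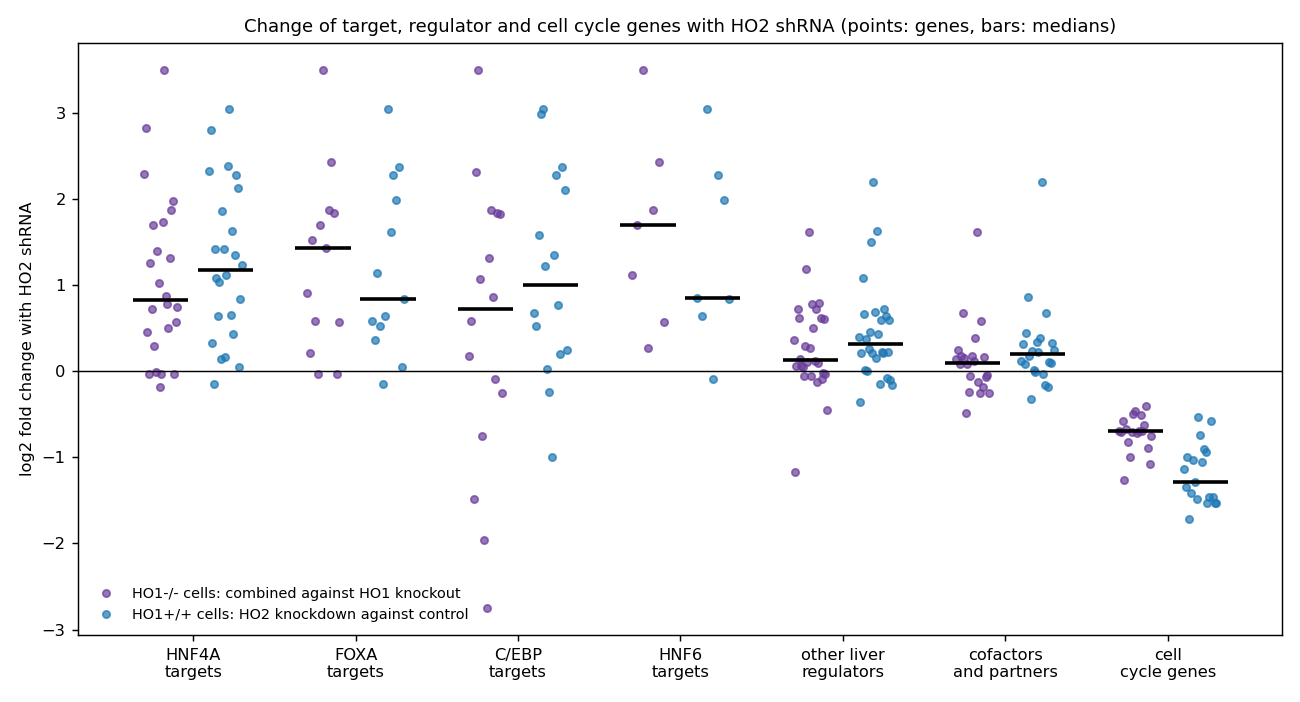
Log2 fold change with HO2 shRNA (y axis) for the genes of 7 lists (x axis), with a point for each gene, in HO1-/- cells on the left of each list and HO1+/+ cells on the right, and bars for the medians. The HNF4A targets had medians of 0.83 and 1.17, and every one of the 19 cell cycle genes lay below 0, with medians of -0.70 and -1.28.

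Other regulators of liver genes were counted beside the 8. Of 28 measured, 13 rose and 2 fell with HO2 shRNA in HO1-/- cells (median 0.13), and 19 rose and 1 fell in HO1+/+ cells (median 0.32). Nr0b2, the orphan receptor SHP that represses HNF4A and bile acid synthesis, rose by 1.62 in HO1-/- cells (SE 0.097 in limma, adjusted p = 4.7e-09) and by 2.20 in HO1+/+ cells (SE 0.097, adjusted p = 8.64e-11). The xenobiotic receptor gene Nr1i2 rose by 0.78 in HO1-/- cells and 1.62 in HO1+/+ cells, the glucocorticoid-induced Klf15 by 1.19 and 1.50, and Creb3l3, a fasting-induced factor of the endoplasmic reticulum, by 0.72 and 1.09. Ppara, the fatty acid receptor, rose by 0.80 in HO1-/- cells and 0.72 in HO1+/+ cells. Cebpd, the C/EBP gene most tied to inflammation, fell with HO2 shRNA, at -1.17 in HO1-/- cells and -0.36 in HO1+/+ cells, and was 0.32 higher in the arrays labelled HO1 knockout than in control (adjusted p = 0.0122). Onecut2, the paralog of Onecut1, was at 0.093 in HO1-/- cells (adjusted p = 0.359) and 0.21 in HO1+/+ cells (adjusted p = 0.0186), against 1.10 and 1.51 for Onecut1.

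In combined against HO2 knockdown 0 of these 28 regulators rose and 10 fell, among them Nr1i2 (-0.70), Nr0b2 (-0.67) and Mlxipl (-0.49), which encodes the glucose-responsive factor ChREBP. In the arrays labelled HO1 knockout against control 2 rose and 1 fell, Onecut2 (0.27) and Cebpd (0.32) up and Mlxipl (-0.38) down. Of 22 cofactors and partners of the 8 factors, 6 rose and 4 fell with HO2 shRNA in HO1-/- cells (median 0.10), and 12 rose and 1 fell in HO1+/+ cells (median 0.20). Ppargc1a, a coactivator of HNF4A at gluconeogenic genes, rose by 0.59 in HO1-/- cells and 0.67 in HO1+/+ cells, and its partner Foxo1 by 0.68 and 0.86. Trib1, whose product steers C/EBPα to degradation, fell in HO1-/- cells (-0.25, limma adjusted p = 0.00689) and rose in HO1+/+ cells (0.24, adjusted p = 0.00673). The share of calls among these lists can be read against the background shares given for each comparison.

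Relatives of the factors were counted for comparison. Among 46 measured relatives of the Fox, Cebp, Onecut and Prox families, 5 rose and 5 fell with HO2 shRNA in HO1-/- cells (median 0.041), where 10.2% of all genes were called higher and 12.8% lower. In HO1+/+ cells 10 rose and 13 fell (median -0.14), where 16.5% of all genes were called higher and 16.7% lower. Foxo4 rose by 0.37 in HO1-/- cells and 0.89 in HO1+/+ cells. Foxm1, a factor of dividing cells, fell in both genotypes, at -0.46 and -0.74, as did Foxn3 at -0.32 and -0.50 and the mesenchymal Foxf1 at -0.25 and -0.36.

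Cell cycle genes fell. All 19 passed the test downward with HO2 shRNA in each genotype, with a median of -0.70 in HO1-/- cells and -1.28 in HO1+/+ cells. Mki67, the proliferation antigen Ki-67, was at -0.62 in HO1-/- cells and -1.46 in HO1+/+ cells, and the cyclin gene Ccna2 at -0.67 and -1.42. Their mean log2 signal was 9.21 to 9.23 in combined and 8.76 to 8.79 in HO2 knockdown, against 9.91 to 9.98 in the arrays labelled HO1 knockout and 9.95 to 9.99 in control. Of 18 hepatocyte markers 14 rose and 0 fell with HO2 shRNA in HO1-/- cells (median 0.62), and 15 rose and 1 fell in HO1+/+ cells (median 1.00). Hnf4a is itself 1 of those markers. Alb, Ttr, Apoa1, Apoa2, Apob, Cps1, G6pc and Tat are also among them and stand in the target lists above. The rise of the markers is thus not separate from that of the targets. The part of the cell cycle genes and hepatocyte markers in the values of the factors was not tested.

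Markers of other cells were less uniform with HO2 shRNA. In HO1-/- cells and HO1+/+ cells in turn, 3 and 2 of 9 cholangiocyte markers rose while 2 and 1 fell (medians 0.091 and -0.10). Sinusoidal endothelial markers had 6 and 7 of 14 up with 1 and 2 down (0.25 and 0.27), and stellate and fibroblast markers had 10 and 5 of 15 up with 1 and 2 down (0.38 and 0.024). Lymphatic endothelial markers, cells that also express Prox1, had 3 and 2 of 7 up with 2 and 2 down (-0.018 and -0.094), and neutrophil markers 1 and 0 of 12 up with 2 and 2 down (0.023 and -0.17). Genes of fetal liver and dedifferentiation had 6 and 5 of 14 up with 4 and 4 down (0.10 and -0.018). Array signal has no true zero, so absence of a marker could not be read from it.

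To describe which genes had the pattern most like each factor, mean-centred log2 values were compared over the 8 arrays by their root mean square difference, for which a smaller value is closer. Among the factors themselves Hnf4a and Cebpa were closest, at 0.13, and Cebpb and Onecut1 farthest apart, at 0.84. Onecut1 and Prox1 differed by 0.26, and Foxa1 and Foxa2 by 0.18. Over all genes the closest were Tenm3 (0.042), Ugp2 (0.048) and Slc22a18 (0.049) to Hnf4a, Habp2 (0.11), Kyat1 (0.12) and Apoh (0.12) to Onecut1, and Garem1 (0.096), Abca8a (0.10) and Tlcd4 (0.11) to Prox1. For the forkhead genes they were Rab4b (0.025), Mettl7b (0.047) and Mtg1 (0.048) to Foxa1, Cdk18 (0.041), Nsmf (0.042) and Nek8 (0.046) to Foxa2, and the plasma protein genes Ahsg (0.091) and Fetub (0.11) with Tnfrsf21 (0.11) to Foxa3. Cebpa was closest to Dab1 (0.052), Phyhd1 (0.060) and Vwce (0.062), and Cebpb to Ogfod3 (0.028), Il13ra1 (0.043) and Lpcat1 (0.046). Such likeness depends on the size of a gene's range, and all values share the same 8 arrays.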

How the data were processed

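Total RNA (300 ng an array, per the labels' protocols) of 8 samples was measured on whole-transcript arrays. The deposited values are log2 signal of each probe set from the authors' RMA (affy, R 2.15.0), per the submitters' processing notes. Neither a chip definition nor a genome build is stated in the sources at hand. Of 34760 probe sets, 21640 had exactly 1 platform gene symbol and were used, 1321 had several and 11799 none. The brightest probe set was kept for the 954 genes with several, which left 19937 genes. The fit was limma 3.58.1 in R 4.3.3, with a mean for each of the 4 groups, a mean-variance trend, 4 residual degrees of freedom and 11.2 prior ones. A gene was called where its adjusted p was under 0.05, whatever its fold change. The number of arrays, 2 a group, limits the precision.

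The 8 factors, the 15 gene lists and the tests were chosen with earlier results of these data known. Of 261 list entries 23 were not matched. 1 list and 1 motif are not reported here. Named genes are the factors, Hmox1, Hmox2, from each list the 4 members with the smallest p for HO2 knockdown and the 4 for the arrays labelled HO1 knockout, each against control, and the 3 genes most like each factor. Among relatives the same rule held, and not every gene that met the rule is named. Tested on simulated data for HO2 knockdown against control, the fit called 22%, 70%, 98% and 100% of 50 genes changed by 0.25, 0.5, 1 and 2 on the log2 scale. Only these genes were changed among the 19937, whereas 6620 were called in the data. The adjustment was thus stricter in the simulation, and its shares do not carry over to the data. As alternatives, array weights, other variance models, normalizations and thresholds, fewer dim genes, averaged probe sets, fits on the compared arrays alone, a replicate block and the omission of each array were tried.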

Additional observations from a re-analysis of the deposited data

Results flagged for a closer look

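The results below had a called difference between genotypes in the change with HO2 shRNA, given as the interaction, the log2 fold change in HO1-/- cells minus that in HO1+/+ cells, with limma's Benjamini-Hochberg adjusted p over all genes. Among the factors it was -0.51 for Foxa1 (adjusted p = 0.000735), -0.29 for Hnf4a (0.00486), -0.41 for Onecut1 (0.0115), -0.53 for Prox1 (0.0169) and -0.38 for Foxa2 (0.0262). Without the mean-variance trend of the fit Hnf4a (0.0819), Prox1 (0.0762) and Foxa2 (0.0547) missed the threshold. Onecut1, Prox1 and Foxa2 also missed it when certain single arrays were left out. The heme oxygenase genes had 0.84 for Hmox2 (3.86e-05) and 0.34 for Hmox1 (0.00305), which missed the threshold without the mean-variance trend of the fit (0.0553). Other regulators and partners had -0.81 for Cebpd (0.000236), -0.84 for Nr1i2 (0.000701), -0.50 for Trib1 (0.00178), -0.59 for Nr0b2 (0.0111), -0.52 for Foxo4 (0.0257) and -0.36 for Creb3l3 (0.0469). Values of single genes under the alternatives were taken only for the factors, Hmox1 and Hmox2. The interactions of other named genes, here and in the next paragraph, were not checked in that way.

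Among target genes the interaction was -3.06 for Arg1 (adjusted p = 1.21e-08), -1.72 for Orm1 (5.5e-08), -1.76 for Orm2 (9.89e-08), -0.77 for Hp (1.1e-06), -0.54 for Tat (9.86e-05), -0.68 for Cps1 (0.000148), -0.26 for Ttr (0.0111) and -0.46 for F12 (0.0352), and it was above 0 for Afp at 0.37 (0.00363). The cell cycle genes fell by less in HO1-/- cells, with 0.84 for Mki67 (2.52e-05) and 0.74 for Ccna2 (2.79e-05). Of the 19 macrophage markers 6 had a called interaction above 0, 3 had one below 0 and 10 were not called, with values from -1.25 to 1.37. Among those named above it was 0.40 for C1qb (0.0318) and 0.57 for Clec4f (0.0349).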

How the results depend on the processing

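Of 856 values of the 8 factors and comparisons recomputed under alternatives, 783 kept their side of the threshold, 61 no longer passed and 12 newly passed. Direction turned in 1, the interaction of Cebpb, which was not called in either fit and was -0.055 as deposited and 0.0054 after a second quantile normalization. The number of factors called was 8 to 8 in HO2 knockdown against control, 3 to 5 in labelled HO1 knockout against control, 5 to 5 in combined against control, 5 to 7 in combined against labelled HO1 knockout, 2 to 7 in combined against HO2 knockdown and 2 to 6 for the interaction when each array was left out in turn. Combined against HO2 knockdown gave 4 factors without the mean-variance trend, 4 with arrays centred on their medians and 2 at an adjusted p under 0.01, against 7, and the interaction gave 2 without the trend and 2 at 0.01, against 5. The cause was not tested. Calls over all genes moved as well. Labelled HO1 knockout against control had 2557, but 1704 without labelled HO1 knockout replicate 1 and 1575 at 0.01. Combined against HO2 knockdown had 6775, but 3827 without HO2 knockdown replicate 1, 4485 and 4072 without combined replicates 1 and 2, and 4283 at 0.01. The interaction had 2442, but 1359 without the trend, 4744 without control replicate 2, 1526 without labelled HO1 knockout replicate 1, 1301 without HO2 knockdown replicate 1, 1365 and 1349 without combined replicates 1 and 2, and 1065 at 0.01. Among called genes the share higher was 38.2% in combined against HO2 knockdown, 27.1% after centring and 47.7% after a second quantile normalization, and for the interaction 38.2%, 27.3% and 50.4%. Deviations of same-numbered arrays correlated between -0.261 and 0.122, so the numbers were not taken as pairs. With the replicate block, 1 factor changed its call, Foxa3 in the interaction (-0.35, limma adjusted p = 0.0438). In the simulated data, where few genes changed, 22% of the changes of 0.25 were called with 2 arrays a group.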
